A study of Bos taurus with 20 samples.

Results

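The genes described here are the integrin chains, the laminin chains and the nidogens of bovine endometrium. They were chosen by gene name alone, with no measured value: integrin alpha and beta chains numbered by digits, the lettered alpha chains D, E, L, M, V and X, laminin alpha, beta and gamma chains numbered by digits, and both nidogens. The array held 81 such probes for 35 genes, among 43653 probes and 25400 gene names in all. No probe carried the name ITGAX, and 37 further probes that the array's design describes as integrins, laminins or related proteins carry other names and are not members. Of the 35 genes, 31 had a probe that passed the filter on dim signal and were tested.

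Endometrial biopsies of 10 cows (Bos taurus, female) were compared between a late period, 343 to 436 days after calving, and an early period, 42 to 86 days after calving, with 10 arrays in each. Every cow gave a biopsy in both periods, taken by forceps from the horn ipsilateral to the corpus luteum at 7 days after oestrus, and breed and age are not given in the sources used here. Late always followed early in the same animal, so the animal's age and the order of sampling cannot be told apart from the interval after calving. Total RNA was labelled with Cy3 on 1-colour arrays with 60-base probes, and a level below is the log2 signal minus the array's 75th percentile, so that 0 is the 75th percentile of that array and a change is late minus early in the same cow.

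Integrins are cell-surface receptors made of an alpha and a beta chain, which hold cells to the matrix or to other cells and signal through the cytoskeleton. Laminins are cross-shaped trimers of an alpha, a beta and a gamma chain that form the sheet of the basement membrane under epithelia and around vessels and muscle, and nidogens link that sheet to type IV collagen. In the uterus, integrins and basement membranes take part in the attachment of the conceptus and in the repair of the epithelium after birth, and leukocyte integrins serve the entry of immune cells.

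Probe sequences are shown for the genes whose values the results turn on. They come from the deposited scanner files, and positions follow HGSC Btau_3.1, the genome build that the scanner files name. Whether a position is exonic, intronic or untranslated was not determined here. The 4 tested NID1 probes lie on the minus strand of chromosome 28, and the first of them stands for the gene because its mean signal was the highest. They are shown because NID1 was the 1 member past the threshold, and they share no bases with each other.

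NID1 probe 1, chr28:7167684-7167743: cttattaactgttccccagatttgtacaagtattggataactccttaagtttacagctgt

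NID1 probe 2, chr28:7168299-7168358: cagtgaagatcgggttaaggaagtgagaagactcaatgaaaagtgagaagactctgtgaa

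NID1 probe 3, chr28:7205141-7205200: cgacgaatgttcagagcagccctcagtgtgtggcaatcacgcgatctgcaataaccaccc

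NID1 probe 4, chr28:7185589-7188026: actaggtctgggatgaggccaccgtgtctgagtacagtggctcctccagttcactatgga

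The ITGAV probes on the minus strand of chromosome 2 are shown because a single one of 4 passed the threshold when each probe was tested on its own. The first stands for the gene, and the second is the one that passed.

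ITGAV probe 1, chr2:10226080-10226139: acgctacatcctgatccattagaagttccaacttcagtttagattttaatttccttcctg

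ITGAV probe 2, chr2:10255382-10255529: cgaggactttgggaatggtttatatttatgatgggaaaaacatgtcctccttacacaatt

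An ITGB2 pair, on the plus strand of chromosome 1, is shown because both probes read nearly the same stretch, so their signals are not independent. Capitals mark the 54 bases they share.

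ITGB2 probe 1, chr1:146784453-146784512: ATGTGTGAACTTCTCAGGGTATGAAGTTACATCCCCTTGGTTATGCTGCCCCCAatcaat

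ITGB2 probe 2, chr1:146784447-146784506: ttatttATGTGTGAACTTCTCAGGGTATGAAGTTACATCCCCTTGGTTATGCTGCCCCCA

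Signals of this pair correlated over the 20 arrays with a Pearson r of 0.989, which describes the agreement of 2 probes on the same RNA. Their changes were -0.30 ± 0.16 and -0.45 ± 0.16 (SE, n = 10 cows). A LAMC1 pair that shares 45 bases had an r of 0.952 and changes of -0.06 ± 0.12 and -0.05 ± 0.13.

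On the 20 arrays between 71.8% and 80.2% of the spots were well above background and no spot was saturated. Of 19442 genes tested, 255 differed between late and early at a limma adjusted p under 0.05 (Benjamini-Hochberg over all genes), 151 lower and 104 higher. Of 6 markers of endometrial identity 5 were tested, and these were well above background on all 20 arrays. Slide and period largely coincided: of 5 slides, 2 carried late samples alone, 2 carried early samples alone, and 1, called the mixed slide below, held the late arrays of cows 1 and 2 with the early arrays of cows 9 and 10. With slide as a further fixed block no gene passed in limma and 366 had an unadjusted p under 0.05, and within the mixed slide, between different cows, none passed and 1721 had an unadjusted p under 0.05. These are biopsies of whole tissue, so fewer cells of a type and less RNA per cell cannot be told apart.

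Among the integrins, laminins and nidogens, NID1 fell and no other member passed the threshold in either direction, 1 of 31, against 1.31% of all genes tested. Most members nevertheless had negative values: 24 of 31, against 9155 of 19442 genes, with a median change of -0.16 over the members and 0.02 over all genes. With slide as a further fixed block the member median was 0.47, and 19 members had the other sign. No cow had both its arrays on 1 slide, so that fit sets cows against each other. Cows 3, 4, 7 and 8 enter it with their changes turned round, which cancels constant slide differences but leaves wide standard errors. It therefore cannot settle the direction, and slide and period cannot be told apart. At an unadjusted p under 0.05, 11 members differed, 10 of them lower and ITGA7 higher, against 22.6% of all genes in either direction and 10.2% lower. Lower values in at least 9 of 10 cows were seen for 4 members (NID1, ITGAL, ITGAM and ITGB5), against 5.98% of genes, and in 10 of 10 cows for 1, ITGAM, against 1.68%. ITGAM and ITGA4, both among the 10 lower members, passed the filter through their early arrays, where they are brighter. Neither their counts of cows nor their p-values are therefore support for a difference. Higher values in at least 9 of 10 cows were seen for ITGA7 alone, against 8.43% of genes. No member had late arrays entirely apart from early arrays, against 0.123% of genes.

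**Figure D1:**
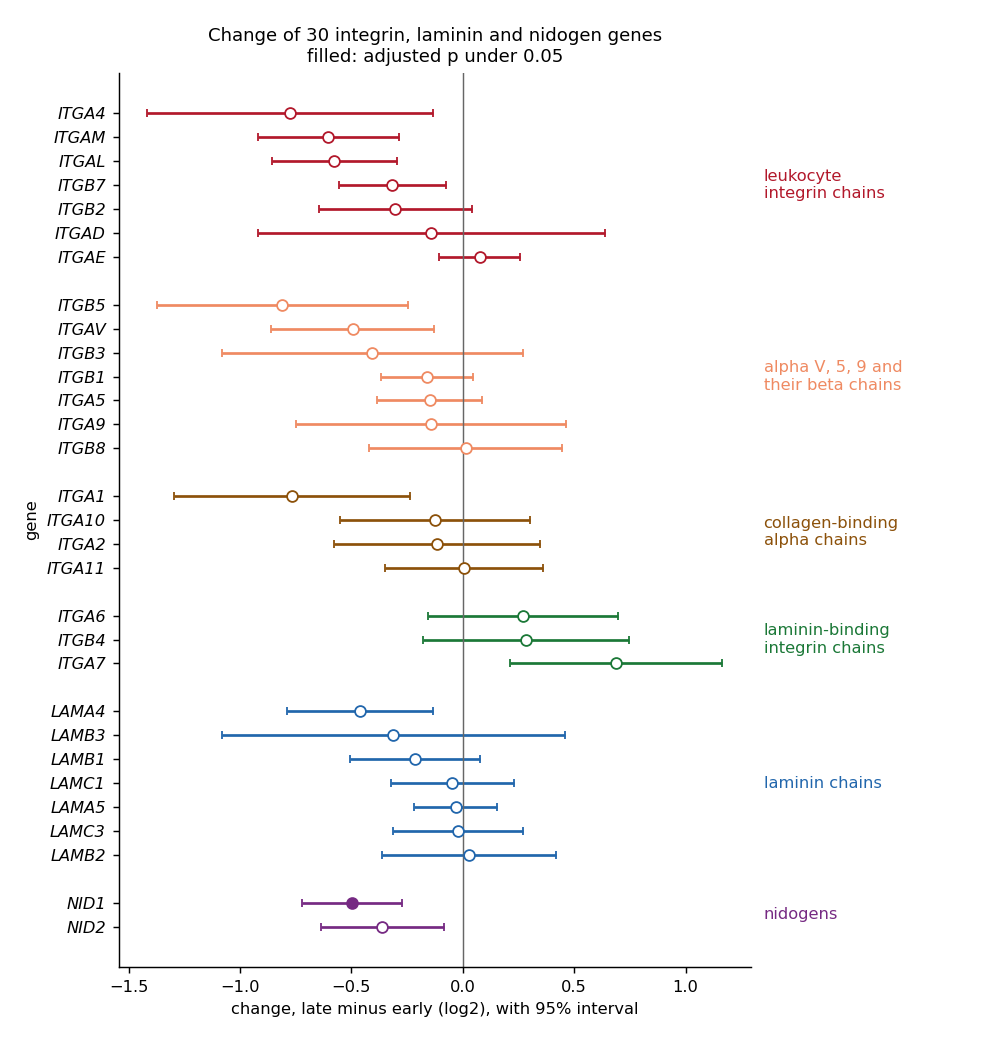
Change of 30 of the 31 tested members, late minus early on the log2 scale (horizontal axis), with its 95% interval over 10 cows (9 for LAMA4 and LAMB3), grouped by role. The filled point is NID1, the 1 member past an adjusted p of 0.05. The 3 chains grouped as laminin-binding integrin chains lie to the right of 0, and 23 of the other 27 members drawn to its left. ITGB1 is drawn with the alpha V, alpha 5 and alpha 9 chains.

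The nidogens bridge laminin and type IV collagen, and NID1 had the smallest p of all members. NID1 levels ran from 1.44 (median 1.62) to 2.10 on late arrays, against 1.60 (median 2.24) to 2.59 on early arrays. Of the late values 5 lay below every early one, but the ranges overlapped, and cow 5 alone had a higher late value. NID1 averaged 1.68 ± 0.23 late and 2.18 ± 0.30 early (SD, n = 10 each). It fell by 0.50 ± 0.10 on the log2 scale (SE, limma adjusted p = 0.0455), to 0.709 of the early level, with a 95% interval of the change from -0.72 to -0.27.

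The NID1 call was close to the threshold. It held in 1 of the 10 fits that left out a cow, the one without cow 5 (adjusted p = 0.0305), and in the other 9 the adjusted p lay between 0.0646 and 0.0958, with changes between -0.51 and -0.44. With slide as a further fixed block the NID1 value was 0.28 ± 0.47 (SE, adjusted p near 1), opposite in sign, and within the mixed slide it was -0.33 ± 0.24 (adjusted p = 0.725). Slide and period cannot be told apart for the NID1 call.

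NID2, the second nidogen, had levels from 0.26 (median 0.51) to 0.85 late, against 0.57 (median 0.91) to 1.37 early. Of the late values 6 lay below every early one, and 8 of 10 cows were lower late. Its change was -0.36 ± 0.13 (SE, adjusted p = 0.135), and it was not past the threshold. Both nidogens had their largest negative values in different cows, NID1 in cow 8 with -0.98 and NID2 in cow 4 with -1.11, and in cow 5 both were slightly positive, with 0.16 and 0.14. The mean level of 6 stromal fibroblast markers, which lie in the tissue around these basement membranes, ran from 2.73 to 3.48 on late arrays and from 3.09 to 3.96 on early arrays, lower late in 8 of 10 cows, and none of the 6 passed the threshold. The part of stromal content in the nidogen and laminin values was not tested.

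The 4 NID1 probes had changes of -0.50, -0.56, -0.45 and -0.26 in the order in which their sequences are given. When each probe of the array was tested on its own, 381 of 33759 probes passed, 1.13%. Probes 1 and 2 of NID1, which lie close together, were among them with adjusted p-values over probes of 0.0484 and 0.0469, and probes 3 and 4 were not, with 0.0957 and 0.239. Probe 4 was well above background on 8 late and 10 early arrays, and probe 3 on 9 late and 10 early arrays. The genomic position of probe 4 spans 2438 bases, longer than the probe, and whether the excess is intronic was not determined. The difference between probe 4 and probe 1 was 0.23, with 8 of 10 cows above 0 (exact sign-flip test, added after the data were seen, p = 0.0879, and 0.249 adjusted over the 34 probe pairs compared).

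**Figure D2:**
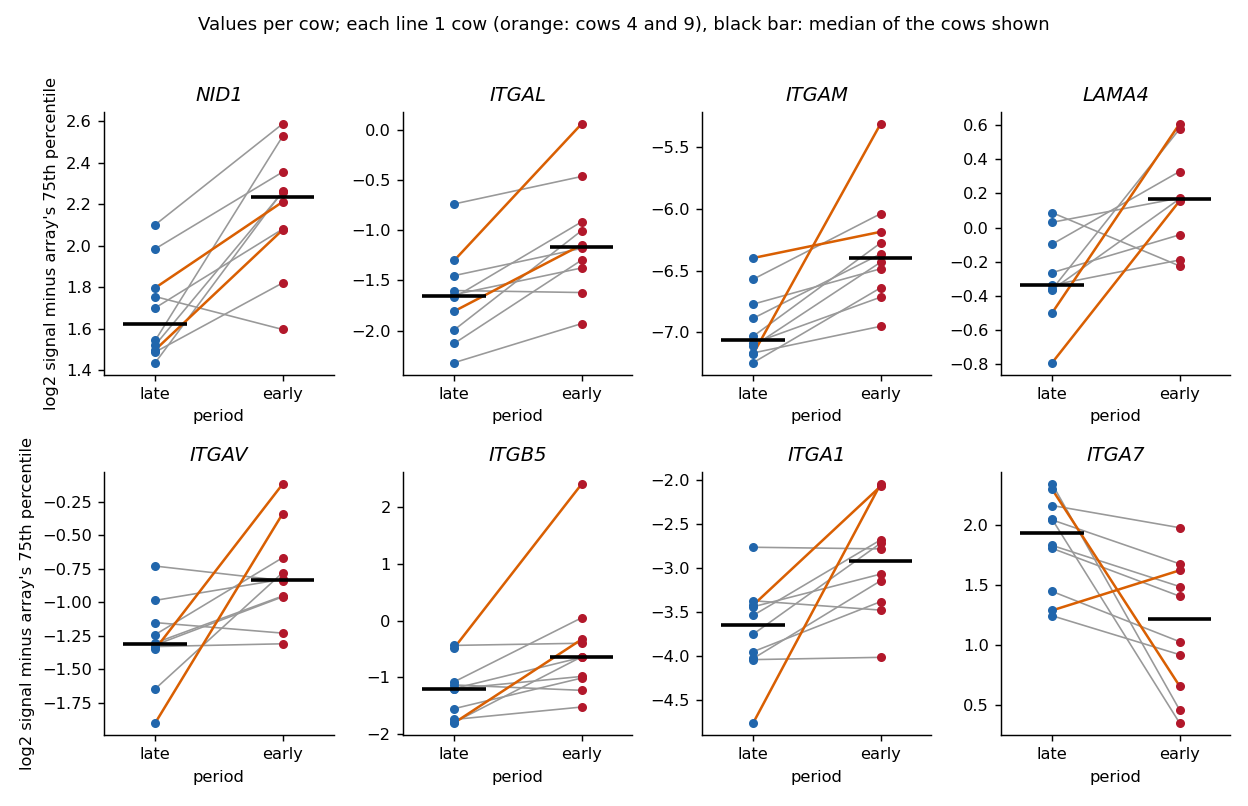
Levels of 8 members on late (left) and early (right) arrays, in log2 signal minus the array's 75th percentile, each line joining both arrays of a cow. Black bars are medians over the cows shown (9 for LAMA4), and orange lines are cows 4 and 9; NID1 is lower late in all cows but 1, ITGAM in all 10, and ITGA7 is higher late in all cows but cow 9.

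The 7 tested leukocyte integrin chains had a median change of -0.32. Of these 6 were negative, against 47.1% of all genes tested, and none passed the threshold. Of the 7, 4 had an unadjusted p under 0.05, against 22.6% of all genes. Among those 4, ITGAM and ITGA4 passed the filter through their early arrays, where they are brighter, so they are no support for a difference. ITGAL is the alpha chain of the lymphocyte integrin that binds ICAMs. Its levels ran from -2.32 (median -1.65) to -0.74 late, against -1.93 (median -1.16) to 0.06 early. The ranges overlapped, and 9 of 10 cows were lower late. The change was -0.58 ± 0.13 (SE, adjusted p = 0.0527).

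ITGAM, the alpha chain of the complement receptor of macrophages, neutrophils and NK cells, was the 1 member lower late in every cow. Its levels ran from -7.24 (median -7.06) to -6.40 late, against -6.95 (median -6.40) to -5.31 early. The change was -0.60 ± 0.14 (SE, adjusted p = 0.0646). The ITGAM probe was dim, well above background on 3 late and 10 early arrays, and with normexp background correction its change was -0.12 (adjusted p = 0.305). Cow 9 had the largest value, -1.86, and without cow 9 ITGAM passed (-0.46, limma adjusted p = 0.0423). The probe passed the filter through its early arrays, so this call is no support for a difference.

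ITGB2, the beta chain that both of these alpha chains need, had a change of -0.30 ± 0.16 (SE, adjusted p = 0.275), with 8 of 10 cows lower late. Its late levels ran from -0.55 (median -0.25) to 1.68, and its early levels from -0.53 (median 0.07) to 1.23. Cow 3 held the highest value in both periods, with a late value well apart from the rest. The 5 tested ITGB2 probes all had negative changes, from -0.61 to -0.08.

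ITGA4, which with the beta 1 or beta 7 chain binds VCAM1 and the mucosal addressin, had a change of -0.77 ± 0.29 (SE, adjusted p = 0.159). Its probe was well above background on 4 late and 9 early arrays, so it passed the filter through its early arrays. With normexp correction the change was -0.17. ITGB7 had a change of -0.32 ± 0.11 (SE, adjusted p = 0.132) at levels from -0.77 (median -0.56) to 0.16 late and -0.77 (median -0.26) to 1.05 early. Its 3 probes disagreed in sign, from -0.32 to 0.07. ITGAE, the alpha chain of intraepithelial T cells, which binds E-cadherin, was at 0.08 ± 0.08 (SE, adjusted p = 0.605), with 2 of 10 cows lower late. ITGAD, a beta 2 partner whose probe was well above background on 4 arrays of each period, was at -0.14 ± 0.36 (SE).

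Leukocyte markers moved in the same samples. Of 9 macrophage and monocyte markers, 4 were called lower late and none higher, against 0.777% of all genes called lower and 0.535% higher. They were led by VSIG4, a complement receptor of tissue macrophages, with -1.47, and CD68, a lysosomal protein of phagocytes, with -1.79. Changes of all 9 ran from -1.79 to 0.12, with 8 negative and 1 positive, against 47.1% negative over all genes tested. The list's mean level ran from -2.13 to -0.39 on late arrays and from -1.48 to 0.32 on early arrays, and it was lower late in 10 of 10 cows. Of 8 T and NK cell markers 1, NKG7, was called lower late, at -1.20, and none higher. The 8 changes ran from -1.20 to 0.23, with 6 negative and 2 positive, and the list's mean was lower late in 9 of 10 cows. The mean macrophage change was -2.17 in cow 4, where ITGAM was at -0.21 and ITGB2 at -1.42, and -1.09 in cow 9, where ITGAM was at -1.86 and ITGB2 at -0.84. The part of these markers in the leukocyte integrin values was not tested.

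The 7 tested chains of the alpha V, alpha 5 and alpha 9 integrins, which bind fibronectin, vitronectin, osteopontin and tenascin, had a median change of -0.16. Of these 6 were negative, against 47.1% of all genes tested, and none passed the threshold. ITGAV, the alpha chain of several such receptors, had levels from -1.90 (median -1.31) to -0.73 late, against -1.31 (median -0.83) to -0.12 early. Late values lay below every early one on 5 arrays, and 8 of 10 cows were lower late. The change was -0.49 ± 0.17 (SE, adjusted p = 0.127), and -0.27 without cows 4 and 9. With slide as a further fixed block it was 0.19, opposite in sign, and within the mixed slide it was -0.87.

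All 4 ITGAV probes had negative changes. Probe 1 and the 2 whose sequences are not shown had changes of -0.49, -0.51 and -0.61, and probe 2 had -1.46 ± 0.29 (SE, adjusted p over probes = 0.0435). The genomic position of probe 2 spans 148 bases, longer than the probe, and whether the excess is an intron was not determined. Probe 2 was well above background on 3 late and 9 early arrays. It thus passed the filter through its early arrays, and many of its late values lie near background.

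ITGB5, the beta chain that binds vitronectin with alpha V, had levels from -1.80 (median -1.20) to -0.44 late, against -1.52 (median -0.64) to 2.40 early. The early value of cow 4 stood far above the others, and 9 of 10 cows were lower late. The change was -0.81 ± 0.26 (SE, adjusted p = 0.113), and -0.47 without cows 4 and 9. All 3 ITGB5 probes were negative, from -0.89 to -0.66.

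ITGB1, the most widely used beta chain, was at -0.16 ± 0.09 (SE, adjusted p = 0.325) by the probe that stands for it and at -0.45 by its other probe, which was lower late in 9 of 10 cows (adjusted p over probes = 0.0662). ITGA5, the fibronectin receptor's alpha chain, was at -0.15 ± 0.11. ITGB3, the beta chain of platelets and of alpha V on vessels, was at -0.41 ± 0.31, with values from -2.08 in cow 4 to 1.12 in cow 10. ITGB8, a partner of alpha V that takes part in activating TGF-beta, was at 0.01 ± 0.20. ITGA9, a receptor chain for tenascin, was at -0.14 ± 0.28 by its brighter probe and at -0.96 ± 0.27 by the other, whose adjusted p over probes was 0.0800. ITGB6, the epithelial partner of alpha V, was well above background on 0 late and 2 early arrays and was not tested.

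**Figure D3:**
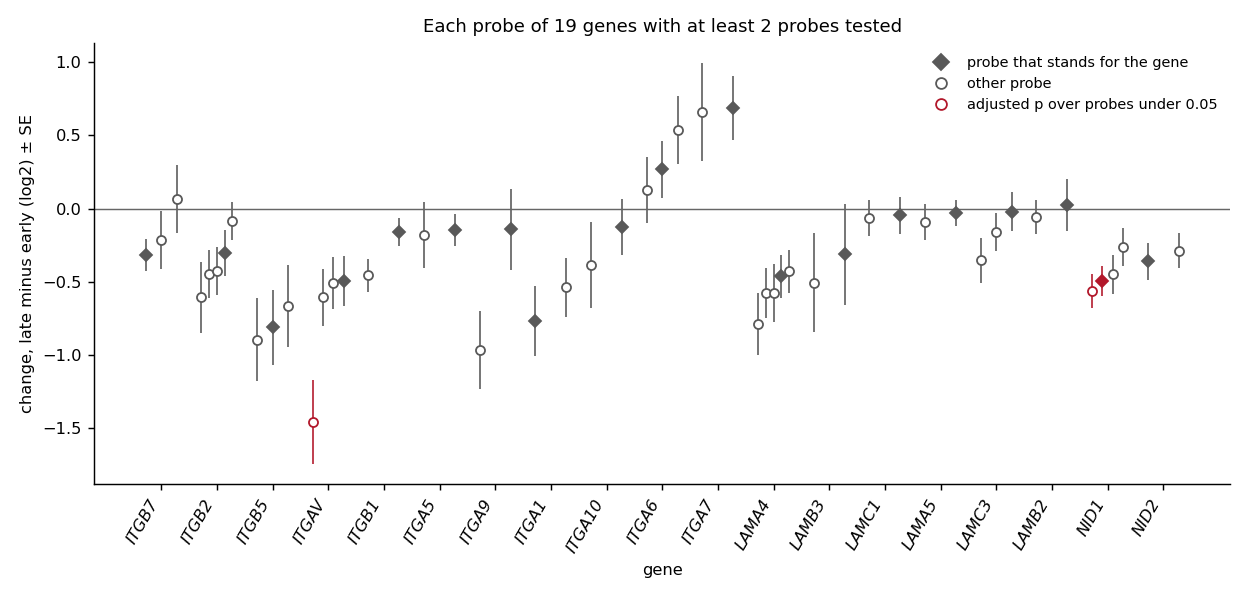
Change of each tested probe, late minus early on the log2 scale with its standard error over 10 cows (9 where an array value was missing), for 19 of the 20 members with at least 2 tested probes. Diamonds are the probes that stand for their gene and red marks the 3 probes past an adjusted p of 0.05 over all probes: 2 of NID1, and 1 of ITGAV at -1.46, the other 3 ITGAV probes lying between -0.61 and -0.49.

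Of the 4 collagen-binding alpha chains, ITGA1 alone had an unadjusted p under 0.05, and the median of the group was -0.12. ITGA1, a collagen receptor of stromal cells, smooth muscle and tissue T cells, had levels from -4.76 (median -3.65) to -2.77 late, against -4.02 (median -2.93) to -2.05 early. The ranges overlapped widely, and 8 of 10 cows were lower late, with the largest value in cow 9 at -2.71. The change was -0.77 ± 0.24 (SE, adjusted p = 0.111), and -0.45 without cows 4 and 9. ITGA2, ITGA10 and ITGA11, the other collagen receptors, were at -0.12 ± 0.21, -0.13 ± 0.19 and 0.00 ± 0.16 (SE), with cows on both sides of 0 for each.

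All 3 tested chains grouped here as laminin-binding integrin chains had positive changes, a direction that 10287 of 19442 genes shared, and none passed the threshold. ITGB1, the most widely used beta chain, was not counted in this role, and its change was -0.16, so the shared direction depends on the grouping. ITGA7, the laminin receptor chain of muscle, had levels from 1.24 (median 1.93) to 2.33 late, against 0.36 (median 1.22) to 1.97 early. Late values lay above every early one on 5 arrays, and 9 of 10 cows were higher late. The change was 0.69 ± 0.22 (SE, adjusted p = 0.112). Cows 4, 6 and 10 had changes of 1.63, 1.69 and 1.87, and the other 7 lay between -0.33 and 0.42. In cows 4, 6 and 10 the mean of the smooth muscle markers changed by -1.12, 1.27 and -0.50, and no smooth muscle marker of 5 passed the threshold. A second, dimmer ITGA7 probe gave 0.66 ± 0.33.

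ITGA6 and ITGB4 form the receptor of hemidesmosomes, which fix epithelial cells to the basement membrane. ITGA6 had levels from -0.45 (median -0.17) to 0.24 late, against -1.42 (median -0.08) to 0.17 early, and a change of 0.27 ± 0.19 (SE, adjusted p = 0.424). ITGB4 had levels from 4.02 (median 4.69) to 5.06 late, against 3.24 (median 4.56) to 4.88 early, and a change of 0.28 ± 0.21 (adjusted p = 0.439). By the probes that stand for them, the positive means of both genes came from the same cows, 4, 9 and 10. ITGA6 changes there were 1.17, 1.21 and 1.26 and ITGB4 changes 1.54, 1.45 and 0.76. In the other 7 cows ITGA6 lay between -0.43 and 0.11 and ITGB4 between -0.57 and 0.21. Without cows 4 and 9 the changes were 0.04 and -0.02. Other ITGA6 probes had changes of 0.54 ± 0.23 (SE), higher late in 8 of 10 cows, and 0.12 ± 0.23, higher late in 6 of 10. ITGA3, the third alpha chain of this role, was well above background on none of the 20 arrays by its only member probe and was not tested. Probes described as integrin alpha 3 under other names are not members, and their signals are not given here.

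Epithelial markers were compared in the same cows. Of 6 luminal and glandular epithelial markers 5 had positive changes and none passed the threshold, with KRT18 at 0.42 (adjusted p = 0.181). Their mean changed by 0.17, 1.32 and 0.35 in cows 4, 9 and 10 and by -0.20 to 0.36 in the other 7. In cow 9 the early levels of ITGA6 and of the epithelial mean were both the lowest of the 10 cows, at -1.42 and 1.05. In cow 4 early ITGA6 was at -1.37 and early ITGB4 at its lowest, 3.24, while the early epithelial mean was the highest of the 10, at 2.62, and in cow 10 early ITGA6 was at -1.01 and that mean at 2.50. The part of epithelial content in the ITGA6 and ITGB4 values was not tested.

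**Figure D4:**
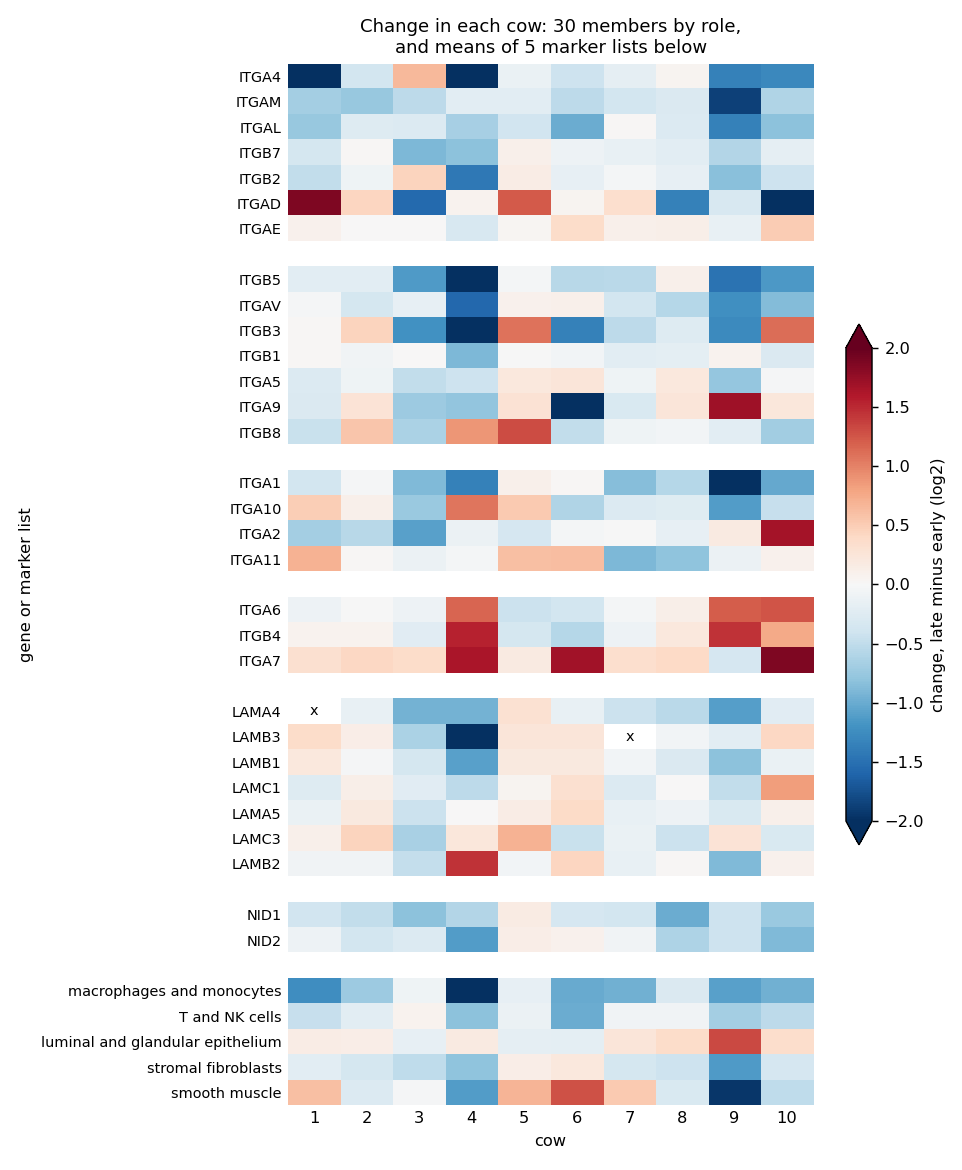
Change in each cow, late minus early on the log2 scale (colour, cut at 2 in both directions), for 30 members in role order and, in the lowest block, for the mean of 5 marker lists; x marks a missing value. Cows 4 and 9 hold many of the deepest blue cells, ITGA6 and ITGB4 are red in cows 4, 9 and 10, and 21 of the 30 members are above 0 in cow 5.

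The 8 tested laminin chains had a median change of -0.10, with 7 negative, against 47.1% of all genes tested, and none past the threshold. LAMA4, the alpha chain of vessel and stromal laminins, had levels from -0.79 (median -0.30) to 0.09 on 10 late arrays, against -0.23 (median 0.17) to 0.61 on 9 early arrays. The early value of cow 1 was an outlier spot and was left out, so 9 cows were compared, of which 8 were lower late. The change was -0.46 ± 0.15 (SE, adjusted p = 0.117). In the deposited value table, which keeps that spot, it was -0.18 (adjusted p = 0.729), and with slide as a further fixed block it was 0.70, opposite in sign. All 5 LAMA4 probes were negative, from -0.79 to -0.43, and each was lower late in 8 or 9 cows.

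LAMB1 and LAMC1 are the beta and gamma chains of most laminins. LAMB1 was at -0.21 ± 0.13 (SE, adjusted p = 0.354), with levels from 3.003 (median 3.35) to 3.68 late and 3.16 (median 3.44) to 4.24 early. LAMC1 was at -0.05 ± 0.13 (adjusted p = 0.851). LAMB2, a beta chain of muscle and vessel laminins, was at 0.03 ± 0.18, LAMC3, a less common gamma chain, at -0.02 ± 0.13 and LAMA5, the alpha chain of mature epithelial and vessel basement membranes, at -0.03 ± 0.09 (SE). The intervals of the changes of LAMA5 and LAMC1 were -0.22 to 0.16 and -0.32 to 0.23.

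LAMB3 is the beta chain of the laminin that anchors epithelia beneath hemidesmosomes. It was at -0.31 ± 0.35 (SE) over 9 cows, since the early value of cow 7 was missing, and the mean was led by cow 4, with -3.31. By their member probes, its partner alpha chain, LAMA3, was well above background on 0 late arrays and on 1 early array, and LAMA1, the alpha chain of embryonic basement membranes, on none. Neither was tested, and probes described as these chains under other names are not members.

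Chains that are known to assemble into a protein were set against each other cow by cow. Of 19 such pairs listed, 15 were measured (1 of them with ITGA2B, which is not a member), and their changes correlated with a median Pearson r of 0.541, against 0.159 over all 406 pairs of members without a missing value. These correlations share arrays and their scaling. In a permutation test over 10 cows, adjusted over the 15 pairs, 2 pairs passed.

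The first was ITGA6 with ITGB4 (permutation test, adjusted p = 0.0051, all 10 cows). Because cows 4, 9 and 10 stood apart, the correlation is given over the other 7 cows, where Pearson r was 0.88 (exact permutation p = 0.00675) and Spearman rho was 0.857 (exact permutation p = 0.0238), a choice made after the values were seen. The second was ITGAV with ITGB5, with a Pearson r of 0.799 (permutation p = 0.00567, adjusted p = 0.0425) and a Spearman rho of 0.564 (permutation p = 0.0955, adjusted p = 0.286). It rested on cows 4 and 9, without which r was 0.299 (exact permutation p = 0.468).

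The leukocyte pair ITGAL and ITGB2 had an r of 0.554 (adjusted p = 0.225), and ITGAM and ITGB2 had 0.244 (adjusted p = 0.594). LAMA4 and LAMC1 had 0.666 over 9 cows (adjusted p = 0.225), and LAMA5 and LAMC1 had 0.603 (adjusted p = 0.225). LAMC1 and NID1, which bind each other in the basement membrane, had -0.08 (adjusted p = 0.999). No within-slide value could be had for these pairs, since no cow had both its arrays on 1 slide.

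**Figure D5:**
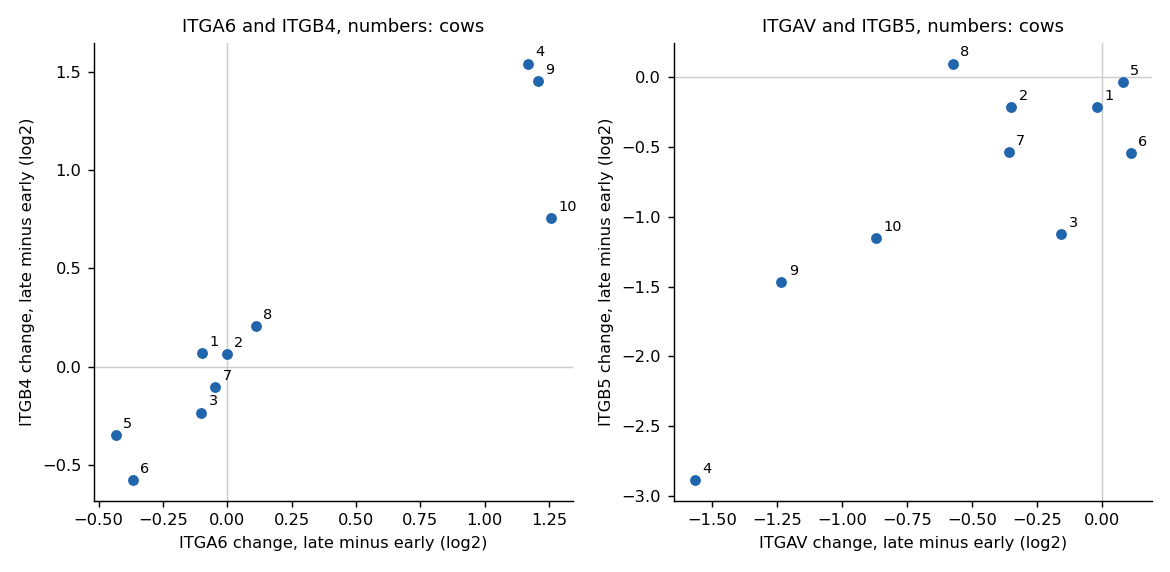
Changes of 2 pairs of partner chains in each of 10 cows, late minus early on the log2 scale, with cow numbers beside the points. For ITGA6 and ITGB4 cows 4, 9 and 10 stand apart from the other 7, among which r was 0.88; for ITGAV and ITGB5 cow 4 lies far below the rest, and r was 0.299 without cows 4 and 9.

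Genes that work with the members were counted by list, against the 0.777% of genes called lower and 0.535% called higher. Over all genes tested 47.1% of changes were negative. Of 18 basement membrane partners tested none passed, and the median change was -0.20, with 15 negative. COL15A1, a collagen of basement membrane zones, was at -1.07 ± 0.24 (SE, adjusted p = 0.0561) and DAG1, the laminin receptor dystroglycan, at -0.35 ± 0.10 (adjusted p = 0.0879). Of 16 matrix ligands of integrins none passed, with a median of -0.54 and 14 negative. FN1, fibronectin, was at -0.74 ± 0.19 (limma adjusted p = 0.0735) and IBSP at 2.49 ± 0.81 (adjusted p = 0.118). The IBSP probe was well above background on 8 late and 6 early arrays, and its levels had SDs of 3.06 late and 2.63 early. Over the basement membrane, matrix ligand, cell ligand and adaptor lists together, limma called 1 gene of 76 tested, and 29 of the 76 had an unadjusted p under 0.05, against 22.6% of all genes.

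That 1 gene was in the list of cell ligands of leukocyte integrins, 10 tested with a median of 0.07: ICAM1, the ligand of the integrins built from ITGAL and ITGAM, fell by 0.91 ± 0.18 (SE, adjusted p = 0.0426). ICAM1 passed in 1 of the 10 fits that left out a cow. Of 32 adhesion adaptors and kinases none passed, with a median of -0.18 and 23 negative. TLN1, talin, which links integrin tails to actin, was at -0.70 ± 0.17 (limma adjusted p = 0.0670) and PARVG, the parvin of blood cells, at -0.75 ± 0.20 (adjusted p = 0.0773). The PARVG probe was well above background on 2 late and 7 early arrays. It passed the filter mainly through its early arrays, so its p-value is no support for a difference. Matrix ligands were led by the same cows as ITGAV and ITGB5, with list means of -1.90 in cow 4 and -1.18 in cow 9.

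Within a period, levels were set against the day after calving. No gene of 19442 passed in limma in either period (0%), while 1.38% had an unadjusted p under 0.05 in the late period and 5.65% in the early period. Among the members 2 of 31 had such a p late and 6 of 31 early. In the late period the smallest were those of ITGA11, with 0.12 ± 0.03 per 10 days, and NID1, with -0.06 ± 0.02 (SE, adjusted p near 1 for both). In the early period they were those of ITGAL, with -0.29 ± 0.10 per 10 days, and ITGB2, with -0.29 ± 0.10 (adjusted p = 0.829 each). Without cow 5, sampled on day 86 and thus latest in the early period, no member had an unadjusted p under 0.05 there.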

How the data were processed

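Total RNA of 20 biopsies was hybridised to 1-colour Agilent arrays. The intensity values are the processed signals that the authors deposited as scanner output of Agilent Feature Extraction 10.5.1.1, background-subtracted per the file headers. They were turned here into log2 values minus each array's 75th percentile over non-control spots, and outlier spots were left out. The deposited value table holds log2 values of the same arrays and served as an alternative; its correlation with the values used here was at least 0.999969 on each array.

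Probes flagged as well above background on 8 or more of the 20 arrays were kept, and the probe of highest mean stood for its gene. Late was compared with early with limma 3.58.1 (R 4.3.3), cow as a fixed block, Benjamini-Hochberg adjustment over 19442 genes and a threshold of 0.05; 206 genes had a missing array value. Slopes per 10 days were fitted within each period. Permutation tests used scipy 1.17.1 (Python 3.11.15), with 100000 resamples over 10 cows. The scripts were tested on simulated data.

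Pairing by cow rests on the design text and on matching animal numbers. A cow's late and early samples had correlations of their deviations from -0.11 to 0.76, above 0.1 in 8 of 10 cows, against a median of -0.03 between cows. The source names of the 10 late samples number the cows otherwise than their titles, and the animal numbers, which match the titles, were followed. Nothing was pooled, and each biopsy is 1 array, so p-values measure the spread between cows on single arrays.

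Members, gene lists, partner pairs and tests were chosen with earlier results of these data known. Of the 35 members 34 are named, and 1, counted in all totals, is not reported here; of each pathway list, up to 4 genes past the threshold or else the 2 of smallest p; of each marker list, at most 2 by smallest p; and of the day slopes, the 2 members of smallest p. Gene names are the array's, updated through RefSeq accessions where they matched; 44 of 81 member probes matched, none to another symbol. Alternatives were the block, background correction, scaling, filter, probe rule, variance model, slide and each cow left out.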

Additional observations from a re-analysis of the deposited data

Results flagged for a closer look

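In 7 of 62 groups of arrays (31 members in 2 periods) 1 array stood apart from the others by more than Dixon's 95% limit allows, and chance alone gives about 5 in 100 such groups. Of these 7, 4 were the early array of cow 4. There LAMB3, an epithelial laminin chain, was at 3.49, against 0.44 for the nearest other early array. ITGB5, a vitronectin receptor chain, was at 2.40, against 0.05. LAMB2 was at -0.46, below the nearest value of 0.82, and ITGB8 at -5.70, below the nearest of -4.43. The array was therefore high for some members and low for others.

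The early array of cow 3 had the highest ITGB7, at 1.05 against 0.20, and its late array the highest ITGB2, at 1.68 against 0.08; both are leukocyte integrin beta chains. ITGB8 on the late array of cow 5 was at -2.69, above the nearest value of -3.86. All of these are log2 levels relative to the array's 75th percentile, on single arrays without repeats.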

How the results depend on the processing

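Of the 31 members, limma called 1 (NID1), and 0 without the replicate block (9 at an unadjusted p under 0.05), with no filter (12), with probes averaged per gene (13), with slide as a fixed block (3), with slide as a random block (11), within the mixed slide (9) and there without the early array of cow 9 (6). It called 2 with normexp, median scaling and the filter on all 20 arrays (NID1 and ITGAL), 2 genes by single probes (NID1 and ITGAV), and 3 with cow as a random replicate block (NID1, ITGAM and LAMA4) and with quantile normalization (NID1, ITGAL and ITGAM). Leaving out each cow gave 0 to 1. Without cows 4 and 9 the 1 call was ITGAM. Over all genes, 255 calls became 119 without the replicate block, 718 with a random one, 114 with no filter, 35 with slide as a random block, 0 with slide as a fixed block and 0 within the mixed slide with or without the early array of cow 9; leaving out each cow gave 35 to 159. The 1 call among the pathway lists became 3 without the replicate block, 6 with a random one, 2 by single probes, 2 without cows 4 and 9, and 0 with no filter, with the mean of probes and in all 4 slide fits (0 to 27 at an unadjusted p under 0.05), and 0 to 1 on leaving out each cow. With slide as a fixed block, NID1 turned to 0.28 and the median member change to 0.47, 19 members changing sign. No cow had both its arrays on 1 slide, so that fit sets cows against each other with wide standard errors and cannot settle the direction. Partner pairs past the threshold fell to 1 with quantile normalization, median scaling or without cows 4 and 9, and numbered 1 to 3 on leaving out each cow. The share of higher calls over all genes was 40.8%, and 53.3% with normexp, 51.6% with quantile and 50.5% with median scaling. The cause of these differences was not tested. ITGAM, ITGA4 and ITGAD were well above background on few arrays of at least 1 period, which limits what can be said of the size of their changes. The ITGAM probe and the ITGAV probe that was called passed the filter through their early arrays, so their calls are no support for a difference.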

Other observations

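Markers of other cell types were measured on the same arrays, where 47.1% of all genes tested had negative changes. All 6 stromal fibroblast markers had negative changes with a median of -0.38 and none passed the threshold; LUM, a collagen-binding proteoglycan, was at -0.50 (limma adjusted p = 0.0802) and PDGFRA at -0.45. Of 5 endothelial markers tested 4 were negative, with a median of -0.18, and of 5 smooth muscle markers 3 were negative, with a median of -0.19. Neutrophil markers had a median of 0.17 (5 tested), B cell markers -0.18 (4 tested), and PF4, the 1 platelet gene tested, was at 0.16. Of the markers of endometrial identity HAND2, a progesterone-responsive factor of the stroma, fell by 0.87 (limma adjusted p = 0.0455), a call that held in 1 of the 10 fits that left out a cow, and HOXA10 was at -0.32 (adjusted p = 0.195).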
